A study of Mus musculus with 6 samples.

Results

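The DNA replication and G1/S genes described here are 51 genes listed by symbol for their roles: the proteins that license and fire replication origins, copy the strands, supply deoxynucleotides and rebuild chromatin, with the E2F factors that switch many of them on. Of these, 50 were measured among 22180 genes in all, and Rfc4 entered no test, since its only probe set also names another gene. They were read on 6 arrays of mouse cumulus-oocyte complexes (COCs), each an immature oocyte inside its layer of somatic cumulus cells. Per the labels, the mice were wildtype females primed with 5 IU of equine chorionic gonadotropin for 46 h, aged 21 days by one label and 23 days by another. Groups of 100 COCs were cultured for 14 or 16 h, depending on the label. The 3 control samples received the vehicle DMSO and the other 3 received Torin1, an inhibitor of the kinase MTOR; the labels put 5 µM beside both names. The titles number 3 Torin1 samples, but the description of Torin1 sample 3 carries the short name of sample 2, so results were also computed with these samples averaged as 1. The medium of all samples held milrinone at 5 µM, which keeps the oocyte in meiotic arrest, and serum albumin at 3 mg/ml. The labels do not say whether the 3 sets per group came from separate mice or days, so the spread behind every p-value is that of the samples at hand and may be technical.

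Replication begins in G1, when the origin recognition complex, CDC6 and CDT1 load rings of MCM2 to MCM7 on DNA, and it proceeds in S phase, when CDC45 and GINS turn these rings into moving helicases. Polymerases then copy the strands on the sliding clamp PCNA, ribonucleotide reductase and thymidylate enzymes supply the precursors, and chromatin assembly factor 1 deposits histones behind the fork. Cumulus cells divide in growing follicles. The enclosed oocyte is arrested in meiosis and does not replicate, but it stores transcripts of many cell-cycle genes for the embryo. In these whole complexes, fewer cells of a type and less RNA per cell cannot be told apart, and neither can a change in cumulus cells from one in the oocyte.

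Most of these transcripts did not pass the test. Of the 50 measured genes 8 were lower, 1 was higher and 41 were not called, by limma at an adjusted p below 0.05 over all genes. Of all genes 12.1% were called, 6.94% lower and 5.13% higher. All 50 members lay above the median gene in mean level (4.17 on the log2 scale of intensity plus 1). Among the 11090 genes above it, 22.1% were called, 12.6% lower and 9.46% higher. The members' share, 18% called and 16% lower, therefore lay above that of all genes and, for all calls together, below that of the genes above the median. Their median log2 change was -0.10 against 0.01 for all genes, and 35 of 50 changes were below 0, compared with 47.2% of all genes. Values did not overlap between the groups for 16 members, 32.0%, compared with 28.6% of all genes and 44.4% of genes above the median. Rrm1, the large subunit of ribonucleotide reductase, had the lowest change, and Pcna, the clamp, the highest. The count of lower members was 1 without DMSO sample 1 or DMSO sample 3 and 3 without Torin1 sample 1. Calls over all genes fell in these fits from 2678 to 1730, 1518 and 1861. Without DMSO sample 2 they fell to 1763, but 7 members were still lower. The count was 6 without Torin1 sample 2 or Torin1 sample 3, with 2025 and 3083 genes called over all. The changes of the 8 lower members stayed below 0 in each of these fits, but their size moved. That of Rrm1, -1.19 with all arrays, was -1.08 without DMSO sample 1 and -0.97 without Torin1 sample 3. That of Chaf1b, -0.95 with all arrays, was -0.77 without DMSO sample 1 and -0.98 without DMSO sample 3. Without DMSO sample 1 that of Mcm3 was -0.42, from -0.54, and that of Orc3 -0.50, from -0.53. With arrays centred on their median the count of lower members was 5.

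**Figure D1:**
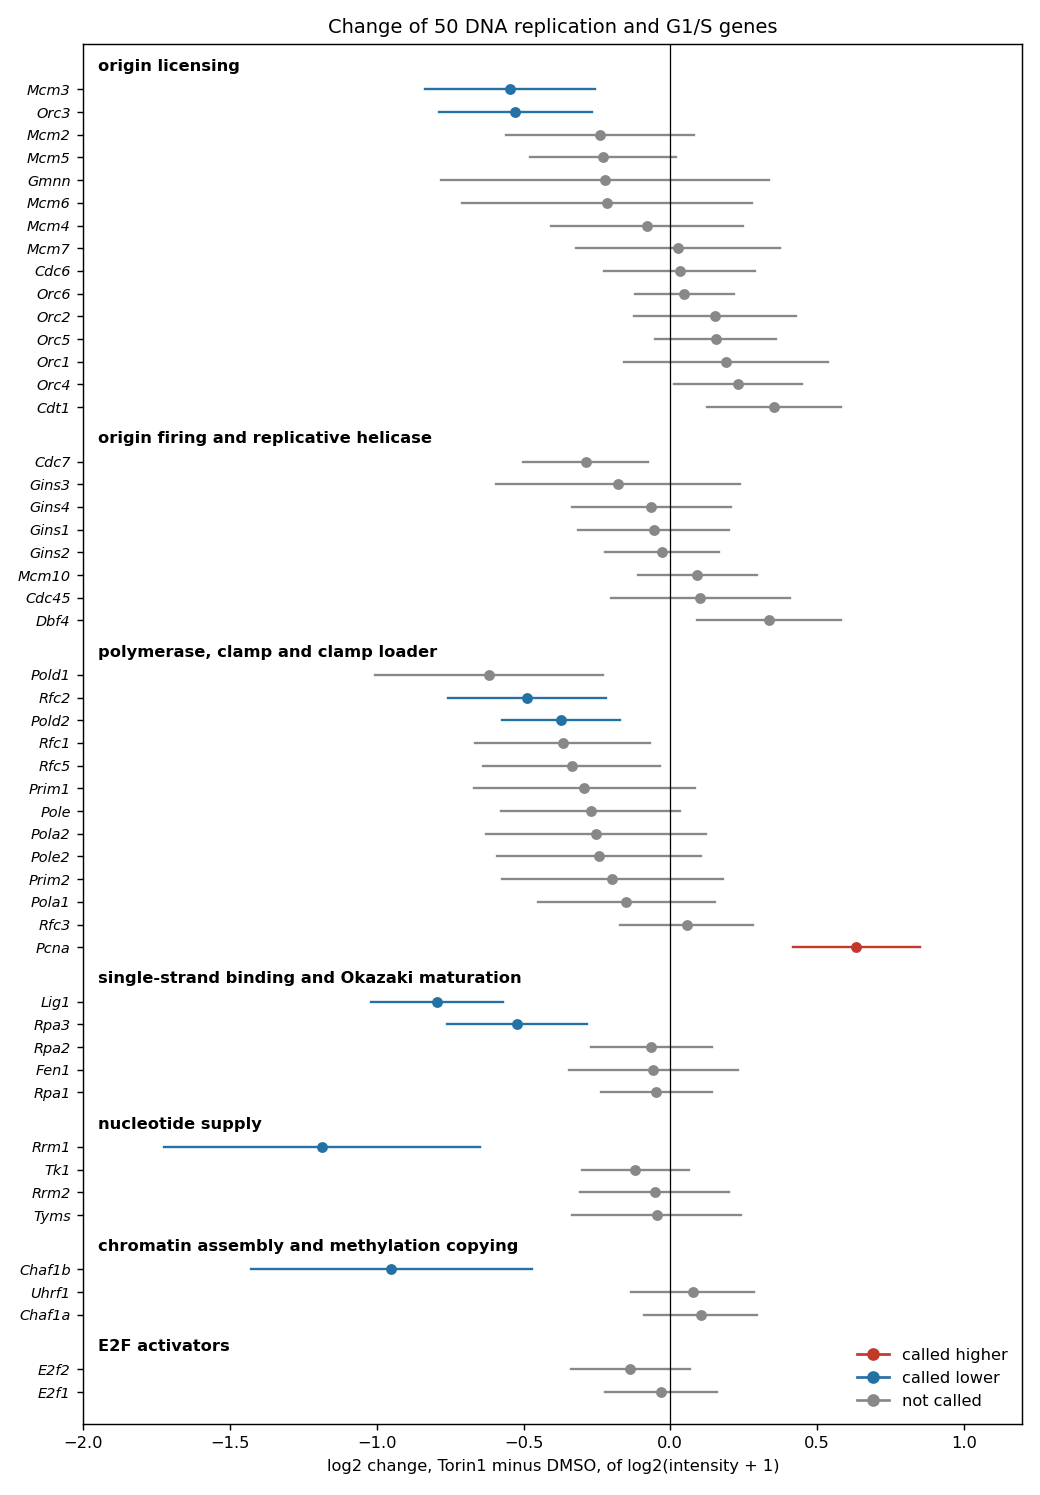
Log2 change (Torin1 minus DMSO, horizontal axis, on the log2 scale of intensity plus 1) of each of the 50 measured genes, sorted within role groups; bars are 95% confidence intervals of the limma fit, n = 3 arrays per group. Rrm1 lies at -1.19 and Pcna, the only gene called higher, at 0.63, while most genes lie near 0.

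Many members have known sequence features in their promoters. The genes were listed by role and not by sequence. E2F factors switch many such genes on, however, so the share with E2F letters is not independent of the list. RefSeq promoters (GRCm38.p6, 250 bases before to 50 after the start) were found for 43 of the 51 genes, and these were searched on both strands for the core letters of E2F sites, TTCCCGC or TTGGCGC, and for the CCAAT box, letters CCAAT. Where both occur, TTGGCGC can share its first bases with a CCAAT box read on the other strand. The E2F letters occurred in 25 of 43 members, or 58.1%, compared with 7.79% of 27025 genes with a promoter and 9.94% of 17492 protein-coding ones. The CCAAT letters occurred in 26 members, or 60.5%, compared with 41.1% of all genes. E2F letters were found for 6 of 8 called members with a promoter and for 18 of 34 that were not called. Of the called members, Pcna and Pold2 had none in this window. A match describes the letters and is not a measured binding site. The sequences below are the 100 bases before the start, 5′ to 3′ on the gene's strand, with the E2F letters and the CCAAT letters of either strand in capitals. They are shown for Rrm1, which fell, and its partner Rrm2, which was not called, for Chaf1a and Uhrf1, uncalled genes of the chromatin group, for Orc3 and Rpa3, which fell, and for Pcna, which rose.
Rrm1, chr7:102441595-102441694, plus strand: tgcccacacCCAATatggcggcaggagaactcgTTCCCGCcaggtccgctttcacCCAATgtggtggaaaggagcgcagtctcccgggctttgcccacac
Rrm2, chr12:24708154-24708253, plus strand: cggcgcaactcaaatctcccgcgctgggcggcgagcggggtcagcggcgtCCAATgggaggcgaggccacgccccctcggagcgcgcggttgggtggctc
Chaf1a, chr17:56040316-56040415, plus strand: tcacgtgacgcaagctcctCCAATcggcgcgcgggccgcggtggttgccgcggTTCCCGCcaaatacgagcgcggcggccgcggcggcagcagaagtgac
Uhrf1, chr17:56303237-56303336, plus strand: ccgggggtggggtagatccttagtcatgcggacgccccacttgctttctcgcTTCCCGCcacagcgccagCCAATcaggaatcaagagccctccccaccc
Orc3, chr4:34614943-34615042, minus strand: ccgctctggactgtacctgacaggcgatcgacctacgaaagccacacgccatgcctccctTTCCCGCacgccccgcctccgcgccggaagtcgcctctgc
Rpa3, chr6:8259142-8259241, minus strand: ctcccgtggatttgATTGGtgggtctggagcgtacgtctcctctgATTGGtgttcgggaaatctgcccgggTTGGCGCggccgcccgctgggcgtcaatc
Pcna, chr2:132253181-132253280, minus strand: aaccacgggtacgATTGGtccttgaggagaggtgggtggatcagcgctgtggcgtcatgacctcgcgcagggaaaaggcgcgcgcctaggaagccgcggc
The E2F letters begin 67 bases before the start in Rrm1, 47 in Chaf1a, 48 in Uhrf1, 40 in Orc3 and 29 in Rpa3, and for Chaf1b, whose sequence is not printed, 227 bases before it and 27 after. The letters thus stood both before genes that fell and before genes that were not called.

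Origin licensing genes went both ways. Of 15 genes 2 fell, 0 rose and 13 were not called, with a median of 0.03, 8 changes above 0 and 7 below. The share that fell, 13.3%, was near the 12.6% of genes above the median level and above the 6.94% of all genes. The genes that fell were Orc3, of the origin recognition complex (ORC), and Mcm3, of the MCM ring.

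Orc3, a core subunit of the origin recognition complex, was at 6.48, 6.32 and 6.47 in DMSO samples 1, 2 and 3 and at 5.85, 6.10 and 5.74 in the Torin1 samples (log2 of intensity plus 1, as for all levels here). All Torin1 values lay below all DMSO values. It fell by 0.53 ± 0.11 (SE; limma adjusted p = 0.0234), a 1.44-fold difference, and was not called without DMSO sample 1, DMSO sample 3 or Torin1 sample 1 (adjusted p up to 0.0912). The other 5 ORC genes had changes of 0.05 to 0.23, all above 0. Orc4, at 0.23 ± 0.09, had no overlap between the groups but was not called (limma adjusted p = 0.185). The same held for Cdt1, the MCM loading factor, whose DMSO values of 6.56, 6.42 and 6.32 all lay below the Torin1 values of 6.71, 6.74 and 6.92 (change 0.35 ± 0.10, limma adjusted p = 0.0607). Its inhibitor geminin, encoded by Gmnn, had DMSO values of 6.06, 6.08 and 6.35 and Torin1 values of 6.09, 6.34 and 5.38, with Torin1 sample 3 apart from the rest (change -0.22 ± 0.24, limma adjusted p = 0.696). Cdc6, the other loading factor, was at 0.03 ± 0.11 (limma adjusted p = 0.931).

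Of the MCM ring genes only Mcm3 was called. It was at 7.66, 7.21 and 7.33 in DMSO and at 6.83, 6.92 and 6.81 in Torin1. The Torin1 arrays lay close together and below all controls, and most of the spread was among the controls. Mcm3 fell by 0.54 ± 0.12 (limma adjusted p = 0.0308) and kept its call only without DMSO sample 2 when single arrays were left out (adjusted p otherwise up to 0.0922). It was also not called with arrays centred on their median (adjusted p = 0.0534). Mcm2, Mcm4, Mcm5 and Mcm6 had changes of -0.24, -0.08, -0.23 and -0.22, and Mcm7 one of 0.03. Mcm5 values did not overlap, with DMSO at 7.98 to 8.35 and Torin1 at 7.89 to 7.95, but it was not called (limma adjusted p = 0.251). In each of these 6 genes DMSO sample 1 was the highest control and DMSO sample 2 the lowest.

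None of the 8 genes of origin firing and the replicative helicase was called by limma at the adjusted threshold. At an unadjusted p below 0.05 there were 2, Cdc7 and Dbf4, which encode the kinase that fires licensed origins and its activating subunit. Cdc7 was at 4.56, 4.55 and 4.76 in DMSO and 4.40, 4.38 and 4.24 in Torin1. Its change was -0.29 ± 0.09 (limma adjusted p = 0.0933). Dbf4 was at 7.43, 7.66 and 7.71 in DMSO and 7.80, 8.01 and 7.99 in Torin1, a change of 0.34 ± 0.10 (limma adjusted p = 0.0909). In neither gene did the groups overlap, and the signs were opposite. The helicase partners Cdc45 and Mcm10 had changes of 0.10 ± 0.13 and 0.09 ± 0.09. The 4 GINS genes had changes of -0.18 to -0.03, and their 95% confidence intervals together spanned -0.59 to 0.24.

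The polymerase, clamp and clamp loader genes had the lowest median of the role groups, -0.27. Of 13 measured genes 2 fell, 1 rose and 10 were not called, and 11 changes were below 0. The gene that rose was the clamp itself.

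Pcna, the ring that tethers the polymerases and recruits many replication and repair proteins, was at 8.10, 7.86 and 8.05 in DMSO and 8.61, 8.72 and 8.57 in Torin1. The gap between the groups was wider than the spread within either. It rose by 0.63 ± 0.09 (limma adjusted p = 0.00552), a 1.55-fold difference. It was called in each of the 6 fits that left out an array (adjusted p 0.00687 to 0.0249).

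The clamp loader genes lay on the other side of 0 or near it. Rfc2 was at 6.55, 6.20 and 6.57 in DMSO and 5.90, 5.99 and 5.97 in Torin1, so DMSO sample 2 was nearest the treated arrays without reaching them. It fell by 0.49 ± 0.11 (limma adjusted p = 0.0352), and of the fits that left out an array it was called only without DMSO sample 2 (adjusted p otherwise up to 0.125). It was also lost with a pseudocount of 16, with arrays centred on their median and with Torin1 samples 2 and 3 averaged as 1 sample (adjusted p = 0.0517, 0.0640 and 0.0540). Rfc1, the large subunit, and Rfc5 had changes of -0.37 ± 0.13 and -0.34 ± 0.13, and Rfc3 one of 0.06 ± 0.10.

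Polymerase delta, which copies the lagging strand, had lower values for both subunits measured here. Pold2, an accessory subunit, was at 7.38, 7.16 and 7.31 in DMSO and 6.84, 6.96 and 6.93 in Torin1. It fell by 0.37 ± 0.09 (limma adjusted p = 0.0325) but was not called without DMSO sample 1, DMSO sample 3, Torin1 sample 1 or Torin1 sample 2 (adjusted p up to 0.115), nor with arrays centred on their median (adjusted p = 0.0685). Pold1, the catalytic subunit, was at 6.61, 6.27 and 6.66 in DMSO and 5.90, 6.16 and 5.62 in Torin1. Its groups did not overlap and its change, -0.62 ± 0.16, was larger than that of Pold2, but its arrays were more spread and it was not called (limma adjusted p = 0.0553). The leading-strand polymerase genes Pole and Pole2 had changes of -0.27 and -0.24. Pole3 and Pole4, which encode subunits of the same enzyme and are among the related genes, had changes of 0.11 and 0.01 and were not called. The primase and polymerase alpha genes Pola1, Pola2, Prim1 and Prim2 lay between -0.29 and -0.15 with overlapping groups, and in all 4 Torin1 sample 2 was the highest and Torin1 sample 3 the lowest of its group.

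**Figure D2:**
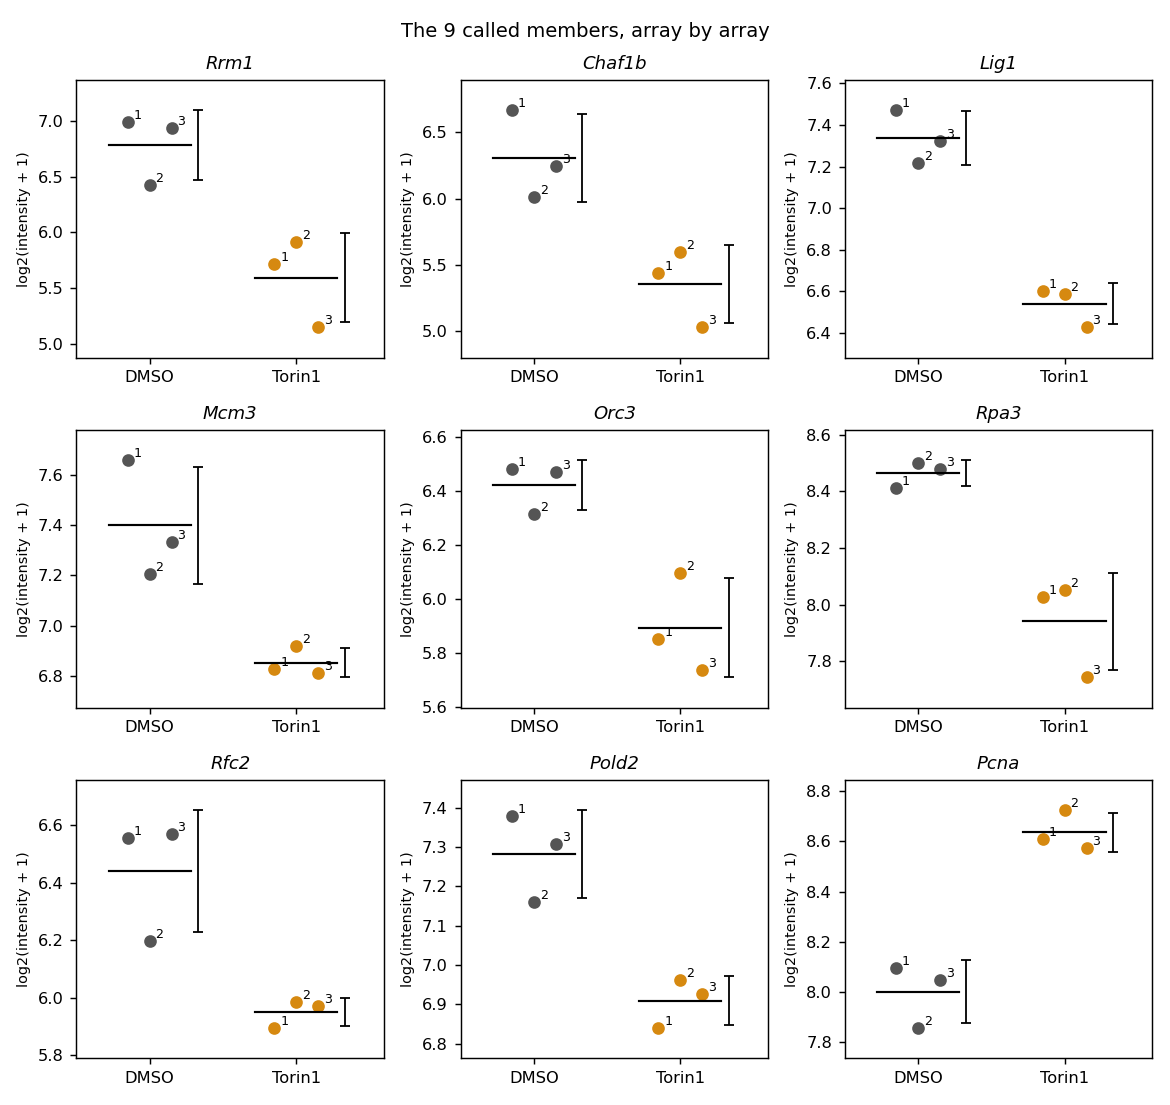
Levels (log2 of intensity plus 1, vertical axis, scaled per panel and not starting at 0) of the 9 called genes on each array; points are arrays numbered by sample, the line is the group mean and the bar beside it is ± 1 SD, n = 3. The groups do not overlap in any panel; Pcna is the panel in which Torin1 arrays are higher, at 8.57 to 8.72 against 7.86 to 8.10.

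Of the 5 genes for single-strand binding and the joining of Okazaki fragments, 2 fell and 3 were not called. Lig1, the DNA ligase that seals these fragments, was at 7.47, 7.22 and 7.32 in DMSO and 6.60, 6.59 and 6.43 in Torin1. Its groups were separated by more than their whole ranges. It fell by 0.80 ± 0.10 (limma adjusted p = 0.00269), a 1.74-fold difference, and was called in each of the 6 fits that left out an array (adjusted p 0.00390 to 0.0160). Fen1, the nuclease that trims the fragments before ligation, had a change of -0.06 ± 0.12 (95% confidence interval -0.34 to 0.23). A dimmer probe set of Fen1 had a change of -0.13.

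Rpa3, the smallest subunit of the single-strand binding complex RPA, was at 8.41, 8.5 and 8.48 in DMSO and 8.03, 8.05 and 7.74 in Torin1. Torin1 sample 3 was the lowest and no values overlapped. It fell by 0.52 ± 0.10 (limma adjusted p = 0.0172) but was not called without DMSO sample 1, 2 or 3 (adjusted p up to 0.0694). A dimmer probe set of Rpa3 had a change of -0.49. The other RPA genes, Rpa1 and Rpa2, had changes of -0.05 ± 0.08 and -0.06 ± 0.09 and were not called. A dimmer probe set of Rpa1 had a change of -0.17.

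Nucleotide supply had the member with the lowest change and 3 genes near 0. Rrm1, the large subunit that carries the active site of ribonucleotide reductase, was at 6.99, 6.43 and 6.93 in DMSO and 5.72, 5.92 and 5.15 in Torin1. DMSO sample 2 was the lowest control and still lay above every Torin1 array. It fell by 1.19 ± 0.23 (limma adjusted p = 0.0171), a 2.28-fold difference, and was not called without DMSO sample 1 or DMSO sample 3 (adjusted p up to 0.0719).

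Rrm2, the small subunit of the same enzyme, was at 5.04, 4.67 and 4.92 in DMSO and 4.90, 4.80 and 4.77 in Torin1, overlapping throughout. Its change was -0.05 ± 0.11 (95% confidence interval -0.31 to 0.20). Tk1, the thymidine kinase of the salvage route, was at 5.60, 5.48 and 5.64 in DMSO and 5.51, 5.44 and 5.42 in Torin1 (change -0.12 ± 0.08, limma adjusted p = 0.450). Tyms, which makes thymidylate, had a change of -0.05 ± 0.12.

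Chromatin assembly showed a similar contrast within a complex. Chaf1b, the middle subunit of chromatin assembly factor 1, was at 6.67, 6.01 and 6.24 in DMSO and 5.44, 5.60 and 5.03 in Torin1. It fell by 0.95 ± 0.20 (limma adjusted p = 0.0251), a 1.93-fold difference. It was not called without DMSO sample 1, DMSO sample 3 or Torin1 sample 1 (adjusted p up to 0.0780), nor with a pseudocount of 16 (adjusted p = 0.0537). Chaf1a, the largest subunit, which binds PCNA, was at 7.13, 7.22 and 7.24 in DMSO and 7.20, 7.38 and 7.33 in Torin1, a change of 0.10 ± 0.08 (95% confidence interval -0.09 to 0.30). Uhrf1, which brings the maintenance methyltransferase to newly copied DNA, had DMSO values of 8.76, 8.88 and 8.85 and Torin1 values of 8.76, 8.98 and 8.97, a change of 0.08 ± 0.09.

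The E2F activator genes themselves were not called. E2f1 was at 6.03, 6.13 and 6.23 in DMSO and 6.10, 6.05 and 6.15 in Torin1, and E2f2 was at 5.18, 5.25 and 5.35 in DMSO and 5.12, 5.03 and 5.23 in Torin1. The groups overlapped in both genes, with changes of -0.03 ± 0.08 and -0.14 ± 0.09 and limma adjusted p of 0.901 and 0.430.

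Differences between partners were tested for 5 pairs chosen after their values were seen. The change of Rrm1 minus that of Rrm2 was -1.13 ± 0.23 (SE, log2 scale). The same difference was -1.05 ± 0.28 for Chaf1b against Chaf1a, -0.74 ± 0.13 for Lig1 against Fen1, -0.48 ± 0.15 for Rpa3 against Rpa1 and -0.62 ± 0.12 for Cdc7 against Dbf4. In every pair the within-array differences of the 3 DMSO arrays did not overlap those of the 3 Torin1 arrays. As the pairs were picked with these values known, that separation is no independent evidence. Each two-sided exact permutation test gave p = 0.1, also after Benjamini-Hochberg adjustment over the 5 pairs, and 0.1 is the smallest p that 3 against 3 arrays allow.

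**Figure D3:**
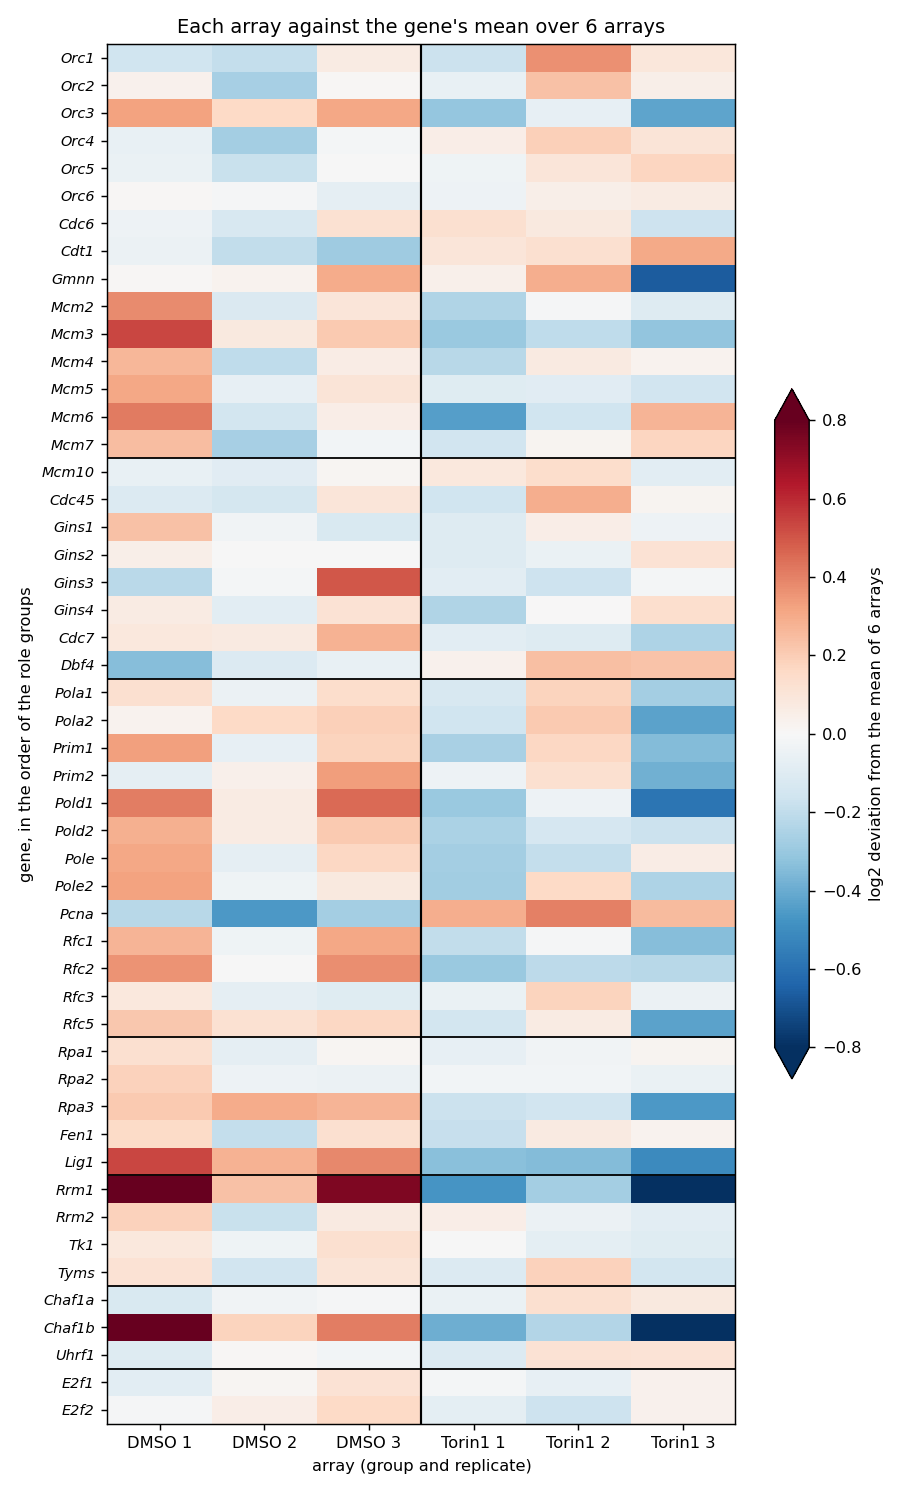
Deviation of each array (columns) from the gene's mean over 6 arrays (colour, log2 scale, clipped at 0.8 in either direction) for the 50 genes (rows, black lines between role groups). Rrm1 and Chaf1b show the strongest contrast, Pcna runs the other way, and DMSO 2 is paler than DMSO 1 in most MCM and polymerase rows.

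The members also varied together within groups. DMSO sample 2 was the lowest control for 35 of 50 members, or 70.0%, compared with 49.3% of genes above the median level and 36.6% of all genes. DMSO sample 1 was the highest control for 27 members, or 54.0%, compared with 37.8% of genes above the median level. Torin1 sample 2 was the highest treated array for 32 members, or 64.0%, compared with 47.2%. The median deviation from the group mean was -0.11 in DMSO sample 2 and 0.08 in Torin1 sample 2, so each deviated towards the other group. The members' median change was -0.17 without DMSO sample 2. The part of these arrays in the members' results was not tested beyond leaving each out.

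**Figure D4:**
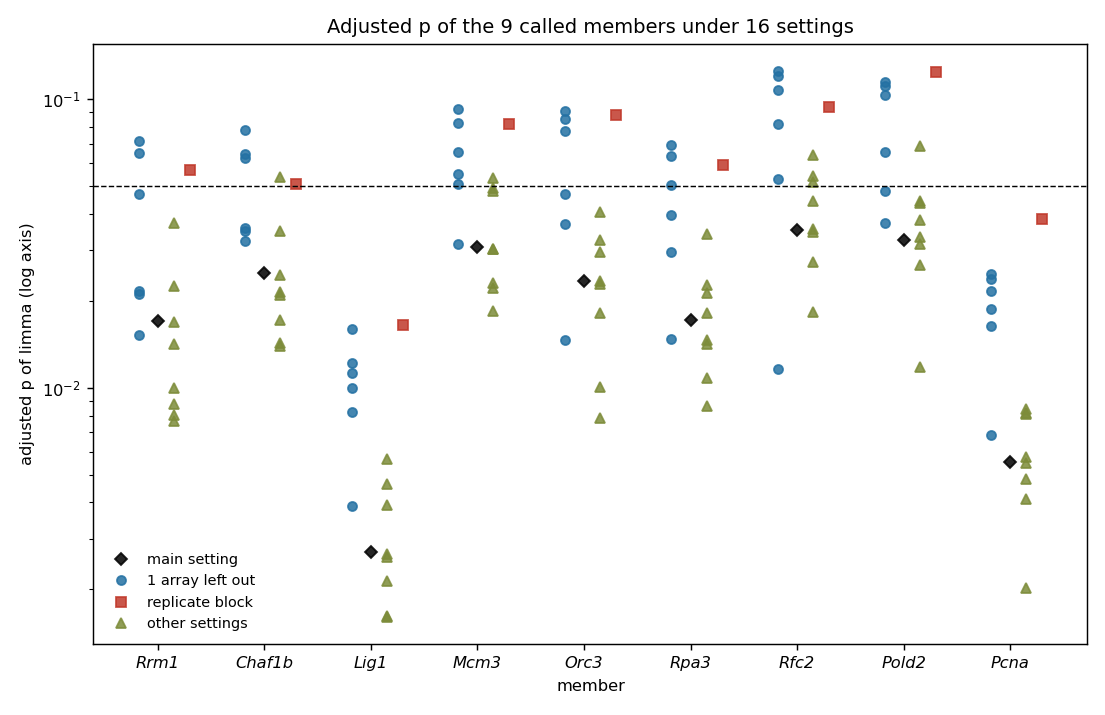
Adjusted p of limma (vertical log axis; dashed line, 0.05) of the 9 called genes under the main setting and 15 alternatives. Lig1 and Pcna stay below the line throughout, with highest values of 0.0165 and 0.0383, and the other 7 genes cross it under at least 3 alternatives.

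Of 75 further replication and G1/S genes listed beside the members, 70 were measured, 1 rose, 2 fell and 67 were not called. The share called, 4.29%, was below the 12.1% of all genes. It was also below the 22.1% of genes above the median level, where 68 of the 70 lay. E2f6, an E2F family repressor, was at 6.43, 5.27 and 5.75 in DMSO and 4.25, 4.34 and 4.26 in Torin1, with a wide spread among the controls and a narrow one among the treated arrays. It fell by 1.53 ± 0.26 (limma adjusted p = 0.0108) and was called in all 15 alternatives. Lin54, a DNA-binding subunit of the complex that represses cell-cycle genes in quiescent cells, was at 6.57, 6.56 and 6.63 in DMSO and 7.0, 7.18 and 7.02 in Torin1. It rose by 0.48 ± 0.08 (limma adjusted p = 0.00975).

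Dtymk, the kinase that follows thymidylate synthesis, was at 6.99, 6.52 and 6.78 in DMSO and 6.14, 6.32 and 5.77 in Torin1. It fell by 0.69 ± 0.17 (limma adjusted p = 0.0443) and was not called without DMSO sample 1, DMSO sample 3, Torin1 sample 1 or Torin1 sample 3 (adjusted p up to 0.138). It was also lost with arrays centred on their median or a pseudocount of 16. Of the 8 measured genes of nucleotide supply in this list, 7 had changes below 0, with a median of -0.26. The other lists were mixed, with 6 of 14 below 0 for firing and fork and 8 of 13 for polymerase, loader and Okazaki genes. For chromatin assembly it was 4 of 11 and for G1/S control 14 of 24, compared with 47.2% of all genes. Dnmt1, the maintenance methyltransferase, and Ccne1, cyclin E1, had changes of 0.17 ± 0.07 and 0.07 ± 0.07 and were not called (limma adjusted p = 0.177 and 0.708). Ccne2, cyclin E2, is not analysed here, since no probe set named it alone.

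The array medians ran from 11.1 to 11.97 intensity units, and no intensity of any marker was at 0. Of the markers of the labelled cells, 13 of 13 for oocytes and 11 of 11 for cumulus and granulosa cells had mean levels above the median gene, which does not measure their signal over background. The summed intensity of the oocyte markers was 5648 to 6035 in DMSO and 6308 to 6889 in Torin1. Of these 13 markers 2 were called higher and 12 did not overlap, compared with 9.46% and 44.4% of genes above the median level. The summed intensity of the cumulus and granulosa markers was 5164 to 5294 in DMSO and 2676 to 2838 in Torin1. Bright genes weigh most in such sums. Of these markers 9 of 11 were called lower, compared with 12.6% of genes above the median level. Nr5a1 and Fst, with changes of 0.00 and 0.16, were not called. Of 19 measured mitotic markers 2 fell (Ccnb2, a mitotic cyclin, by 0.64 and Aurkb, a mitotic kinase, by 0.70) and 0 rose, and the list's median was 0.05. Its summed intensity was 3818 to 4087 in DMSO and 3571 to 4292 in Torin1. Mki67, the proliferation marker, was not called (-0.26 ± 0.20, limma adjusted p = 0.527). Summed intensities of the other marker lists were 391.7 to 457.5 in DMSO and 104.6 to 120.7 in Torin1 for 6 theca and stroma markers, of which Acta2 fell by 2.87 and Pdgfra by 0.82. Acta2 made up most of this sum in DMSO, and Col1a1, Col3a1, Dcn and Cyp17a1, with changes of -0.30, -0.10, -0.02 and 0.05, were not called. The sums were 91.3 to 98.4 and 139 to 259 for 5 endothelial markers, of which Cdh5 alone was called (2.33 higher), and 58.2 to 63.6 and 67.9 to 73.4 for 6 macrophage and leukocyte markers, with Cd68 higher. None of the 5 erythroid markers was measured. The part of any of these cells in the members' results was not tested.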

How the data were processed

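The deposited intensities came from the authors on a linear scale, 1 per array and probe set; the submitters' processing notes name RMA, GCOS and Affymetrix Expression Console 1.1, and give no settings here. RMA usually includes quantile normalization between arrays, so changes are read relative to other transcripts. Of 41345 probe sets, 23521 named 1 gene, 1814 several, and 16010 are unnamed here. Log2(intensity + 1) was taken and the brightest of a gene's probe sets kept, which gave 22180 genes. The pseudocount of 1 understates changes of dim genes. Groups came from the titles. The 3 Torin1 arrays were set against the 3 DMSO arrays in limma 3.58.1 under R 4.3.3 (lmFit, then eBayes; tests were two-sided, and neither covariates nor a filter were used). All 22180 p-values were adjusted by Benjamini-Hochberg, and a gene was called at an adjusted p below 0.05; errors of changes are its SE. Pairs were tested with scipy 1.17.1.

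The members, lists and role groups were chosen with earlier results of these data known. The text gives every called member by array, fills each role group to 2 members by size of change, and names the called related genes plus Dnmt1, Ccne1 and Ccne2 among those fixed in the rule (1 further item is not reported here); Pold1, Cdt1, Gmnn, Mcm5, Rrm2, Mki67, Ccnb2, Aurkb, the theca, stroma and endothelial markers named, Cd68, the partner pairs, and the background of genes above the median level, were added after their values were seen. Levels of single genes are not set against each other; whether a gene lay above the median level and sums over marker lists do mix probe sets, whose brightness also depends on the probes. Depth does not apply to arrays, whose number limits the precision.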

Additional observations from a re-analysis of the deposited data

How the results depend on the processing

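Lig1, Pcna and E2f6 were called under each of the 15 alternatives. The count of all genes called, 2678, ranged from 1518 to 3083 when single arrays were left out (1730, 1763 and 1518 without DMSO sample 1, 2 or 3), that of lower members, 8, from 1 to 7, that of higher members stayed at 1, and that of related genes, 3, ranged from 2 to 5 (5 without Torin1 sample 3); the members' median ranged from -0.17 to -0.07. With arrays centred on their median 5 members were lower. Related genes called numbered 6 with a pseudocount of 16 and 5 with quantile normalization. With the replicate number as a block, 1565 genes, 1 lower member (Lig1) and 1 related gene were called. The labels do not say whether same-numbered samples belong together. Their deviations from the group mean correlated at -0.21, -0.30 and -0.15, and those of differently numbered samples at -0.12 to 0.31. With 3 arrays per group these values cannot settle whether the samples were paired. A call lost with that block (Lin54, limma adjusted p = 0.0554, among them) had the same change with another SE. E2f1 changed sign without DMSO sample 3 (0.020, from -0.031; not called in either) and ranged from -0.082 to 0.020 when single arrays were left out. Of the other values of named genes, 223 kept direction and side of the threshold and 46 lost the call. Precision is limited by 3 arrays per group; signal over background is unknown here.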

Other observations

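Some probe sets name a member together with another gene and entered no test. That of Rfc4 and Eif4a2 was at 5.18 ± 0.34 in DMSO and 4.94 ± 0.06 in Torin1 (log2, SD, n = 3 each), and the DMSO range holds DMSO sample 1 at 5.57 with the others at 4.91 and 5.08. That of Tyms and its pseudogene Tyms-ps was at 3.87 ± 0.03 and 4.29 ± 0.13, above 0 in change (0.43), whereas the probe set of Tyms alone was at -0.05. The probe sets shared by Mcm7 with the microRNA genes in its introns, Mir25 and Mir93, had changes of 0.01 and 0.05, and that of Mcm7 alone 0.03. Of the 5 members with several probe sets of their own, Pole had changes of opposite sign, -0.27 for the brighter and 0.05 for the dimmer.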
